A study of Mus musculus with 23 samples.

Results

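Genes of the surface and the secretions of fetal-like intestinal cells, 9 in all, were followed through every RNA-seq and Ribo-seq group of the series. They were Spp1, Il1rn and Clu, whose products are secreted, Cd44, Ly6a, Gja1 and Emp1, whose products sit at the cell surface, and Basp1 and Marcksl1, whose products line the inner face of the plasma membrane. They were taken by name from a list, as 9 of the 22350 genes counted in RNA-seq, and all 9 had values in every group.

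Adult intestinal stem cells (ISCs) sit at the crypt base, depend on Wnt signalling and are marked by Lgr5. In fetal gut, and in adult gut repairing damage, the epithelium instead runs a programme marked by Ly6a (also called Sca-1), Clu, Spp1 and annexins, with little Lgr5. Several of its genes belong together as ligand and receptor: osteopontin, the product of Spp1, binds integrins and CD44, and the product of Il1rn blocks the interleukin-1 receptor.

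Organoids, crypt cultures from the small intestine of C57BL/6 mice, were compared in RNA-seq as WT (VillinCre.ERT2.RPL22.HA, 2 lines), Rptor fl/fl (VillinCre.ERT2.Rptor.fl/fl, 2 lines) and stem cell enriched (SCe; VillinCre.ERT2.RPL22.HA grown with 10 µM CHIR 99021, an inhibitor of GSK3 that activates Wnt signalling, and 1.5 mM valproic acid, 3 libraries). Rptor encodes Raptor, an essential part of the mTORC1 kinase complex, and VillinCre.ERT2 acts throughout the intestinal epithelium. RNA of the Rptor fl/fl organoids came from a genotype without the RPL22.HA tag, which the WT and SCe organoids carried. Ribo-seq counts the fragments of mRNA that ribosomes protect (footprints), here after pulldown of ribosomes tagged by RPL22.HA. It covered Rptor fl/fl organoids (VillinCre.ERT2.Rptor.fl/fl.RPL22.HA) and SCe organoids, and small intestine of mice that were WT (Lgr5Cre.ERT2.RPL22.HA) or Rptor fl/fl (Lgr5Cre.ERT2.Rptor.fl/fl.RPL22.HA), with 3 libraries in each of the 4 groups. The mice were 8 to 12 weeks old and were taken 24 h after 120 mg/kg tamoxifen, which turns on the Cre in Lgr5-positive cells. The labels call the mice and the organoids other than SCe untreated, while the study's methods describe induction with tamoxifen.

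The libraries held from 27439459 to 67598878 reads per line or culture in RNA-seq, from 1106178 to 8257457 footprints in organoids and from 772077 to 8238388 in mice, so low values in the footprints carry the largest counting error. Rptor RNA was at 51.5 and 47.9 counts per 1000000 (CPM) in WT and at 14.8 and 15.5 CPM in Rptor fl/fl organoids, a log2 change of −1.71 (adjusted p = 0.00516, edgeR quasi-likelihood test). Footprints on Rptor did not differ past the threshold in organoids (adjusted p = 0.318) or in mice (adjusted p = 0.15), so the groups of Ribo-seq are named by their labels and each direction below is between the libraries so labelled. Lgr5 RNA fell as well (log2 −1.80, adjusted p = 0.0173). The labels do not say whether the 3 libraries of an organoid group came from separate cultures, so p-values may there measure technical spread. In RNA-seq the summed CPM of 9 epithelial markers was 8450.5 to 8814.7 in WT, 8862.6 to 8964.6 in Rptor fl/fl and 4570.8 to 5074.2 in SCe organoids. Of these 9, 5 were called lower in SCe than in WT and 5 higher in Rptor fl/fl than in SCe organoids. The part of this difference in the members' changes was not tested. The summed CPM of 12 immune markers stayed between 4.15 and 7.60 in RNA-seq, with Tyrobp and Cd53 at 0 in all 3 groups.

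The members lie apart in the mm10 genome (GENCODE vM21), and all 9 are protein-coding. Spp1 (ENSMUSG00000029304.14) is at chr5:104435118-104441050, Il1rn (ENSMUSG00000026981.15) at chr2:24336853-24351494 and Clu (ENSMUSG00000022037.15) at chr14:65968483-65981547, each on the plus strand. Cd44 (ENSMUSG00000005087.17) is at chr2:102811141-102901665 and Ly6a (ENSMUSG00000075602.10) at chr15:74994877-74998031, both on the minus strand. Gja1 (ENSMUSG00000050953.10) is at chr10:56377330-56402513 and Emp1 (ENSMUSG00000030208.15) at chr6:135362545-135383173, both on the plus strand. Basp1 (ENSMUSG00000045763.8) is at chr15:25363277-25413764 on the minus strand and Marcksl1 (ENSMUSG00000047945.6) at chr4:129513581-129515985 on the plus strand.

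The promoters are shown first for Spp1, whose reads were assigned to transcripts from both of its starts, and for Gja1, Il1rn and Emp1, the 3 members whose promoter held a match to the AP-1 site, which is bound by Jun and Fos proteins downstream of stress kinases. RefSeq promoter entries (GRCm38.p6, 250 bases before to 50 bases after a start) were held for 7 of the 9 members in 11 entries, with none for Ly6a or Clu. The searched letters were TGANTCA for AP-1 and GGAATG for TEAD, the DNA partner of YAP, on both strands; no match of one overlapped a match of the other. Of all 32851 promoter entries of 300 bases, 7.81% held the AP-1 letters and 14.7% the TEAD letters. Capitals mark the matches, and the sequences run 5′ to 3′ on the plus strand, which is the strand of these genes.
Gja1, chr10:56377050-56377349: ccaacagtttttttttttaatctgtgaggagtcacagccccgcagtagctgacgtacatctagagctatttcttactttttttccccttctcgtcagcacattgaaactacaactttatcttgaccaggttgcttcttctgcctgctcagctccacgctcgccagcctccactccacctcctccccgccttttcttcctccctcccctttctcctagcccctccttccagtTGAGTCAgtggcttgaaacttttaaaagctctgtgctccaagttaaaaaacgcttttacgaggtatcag
Il1rn, chr2:24336610-24336909: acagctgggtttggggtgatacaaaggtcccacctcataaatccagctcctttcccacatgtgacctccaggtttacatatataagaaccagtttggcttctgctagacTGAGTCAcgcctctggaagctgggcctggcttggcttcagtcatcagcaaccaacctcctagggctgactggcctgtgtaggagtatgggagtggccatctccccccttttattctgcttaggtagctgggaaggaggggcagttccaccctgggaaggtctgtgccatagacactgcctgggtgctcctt
Emp1, chr6:135362681-135362980: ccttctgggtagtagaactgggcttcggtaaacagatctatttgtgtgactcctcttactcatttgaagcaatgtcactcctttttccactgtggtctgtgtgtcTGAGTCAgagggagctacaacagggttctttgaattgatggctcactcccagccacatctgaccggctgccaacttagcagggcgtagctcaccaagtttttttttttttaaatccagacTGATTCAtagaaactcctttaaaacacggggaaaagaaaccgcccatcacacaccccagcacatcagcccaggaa
Spp1, chr5:104434861-104435160: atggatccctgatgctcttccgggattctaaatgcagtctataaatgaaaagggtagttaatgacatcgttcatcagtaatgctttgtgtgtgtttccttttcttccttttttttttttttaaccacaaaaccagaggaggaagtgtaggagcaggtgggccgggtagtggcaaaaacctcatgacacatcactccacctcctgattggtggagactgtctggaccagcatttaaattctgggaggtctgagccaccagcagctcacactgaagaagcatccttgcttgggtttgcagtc
Spp1, chr5:104435942-104436241: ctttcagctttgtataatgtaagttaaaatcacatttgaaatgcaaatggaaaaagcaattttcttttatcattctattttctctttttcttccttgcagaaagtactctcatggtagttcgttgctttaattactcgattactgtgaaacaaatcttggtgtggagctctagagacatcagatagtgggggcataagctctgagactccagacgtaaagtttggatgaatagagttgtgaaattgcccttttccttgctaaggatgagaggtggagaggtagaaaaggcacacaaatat
Counted from the start, the match in Gja1 began at −19, that in Il1rn at −141, and those in Emp1 at −145 and −25. The TEAD letters occurred in 1 member entry, at −24 from the start of a further Il1rn entry at chr2:24345121-24345420. Neither Spp1 start had a match to either motif in this window.

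In RNA, 8 of the 9 members were higher in Rptor fl/fl than in WT organoids and Marcksl1 was lower, and all 9 passed the test. Over all 14131 genes tested, 11.6% were called higher and 11.0% lower. The median log2 change of the members was 1.66, against −0.00494 over all genes. The members were chosen with earlier results of these data known, so their counts and median are not independent evidence. In bulk RNA, fewer cells of a type and less RNA per cell cannot be told apart. Markers of other epithelial cells moved with the genotype: the summed CPM of 7 goblet markers was 1760 to 1902 in WT and 3088 to 4291 in Rptor fl/fl organoids, with 4 rising, and 5 of 7 Paneth markers fell. Their part in the members' changes was not tested.

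Spp1 was listed at 0 in both WT lines and had 852 and 225 reads, or 16.5 and 3.94 CPM, in the lines with Rptor fl/fl. Against 3 counts per WT library this is at least 174-fold higher (adjusted p = 0.0269). With all 3 RNA-seq groups in one edgeR fit the call of Spp1 was lost (adjusted p = 0.0528). Gja1, which encodes connexin 43 of gap junctions, had 2 reads per WT line and, in Rptor fl/fl organoids, 627 and 310 reads, a ratio of 221 with a counting interval of 85.9 to 812 (95%, exact binomial; counting error only; adjusted p = 0.0101). These 2 genes went from at or under the detection limit in WT to clear levels in both Rptor fl/fl lines.

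Clu encodes clusterin, a secreted chaperone, and stood at 79.0 and 136 CPM in WT and at 698 and 441 CPM in Rptor fl/fl organoids (log2 2.41 ± 0.35 SE, adjusted p = 0.0184). Emp1, a membrane protein of the PMP22 family, stood at 218 and 198 CPM in WT and 744 and 549 CPM in Rptor fl/fl organoids (log2 1.64, adjusted p = 0.0111). They were the most abundant members per transcript length in Rptor fl/fl organoids, at 507 ± 187 TPM for Clu and 349 ± 87.7 TPM for Emp1 (SD, n = 2 lines), and their ranges over the lines overlapped.

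Il1rn rose from 24.5 and 31.4 CPM in WT to 88.4 and 81.3 CPM in Rptor fl/fl organoids (log2 1.60, adjusted p = 0.0101). Its call was lost in 1 of 11 alternatives. Ly6a, a glycosylphosphatidylinositol-anchored surface protein, rose from 15.6 and 11.8 CPM to 56.7 and 30.1 CPM (log2 1.66, adjusted p = 0.0329). The call of Ly6a was lost with all 3 RNA-seq groups in one edgeR fit (log2 1.66 ± 0.67 SE, adjusted p = 0.17). It was also lost without the first or the second WT line (log2 1.88 and 1.47). Ly6a belongs to a family of similar neighbouring genes between which Salmon can divide reads, and how many reads they share was not measured. Basp1, a myristoylated protein known from growing axons, rose from 3.80 and 2.04 CPM to 31.9 and 11.8 CPM (log2 2.90, adjusted p = 0.0321).

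Cd44, the receptor of hyaluronan, had the smallest rise, from 127 and 143 CPM in WT to 208 and 184 CPM in Rptor fl/fl organoids (log2 0.53 ± 0.10 SE, adjusted p = 0.0256). Marcksl1, a relative of the actin-binding protein MARCKS, fell from 54.6 and 55.9 CPM to 21.3 and 24.4 CPM (log2 −1.27 ± 0.09 SE, adjusted p = 0.00891). No member's WT lines overlapped its Rptor fl/fl lines, with 8 above and 1 below. With 2 lines per group, groups often do not overlap without any change, and the share over all genes is not given. The calls of Basp1 and Cd44 were lost without either WT line or without the first Rptor fl/fl line, with adjusted p-values from 0.0528 to 0.0953, at log2 changes of 2.02 to 3.42 for Basp1 and 0.44 to 0.62 for Cd44.

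**Figure D1:**
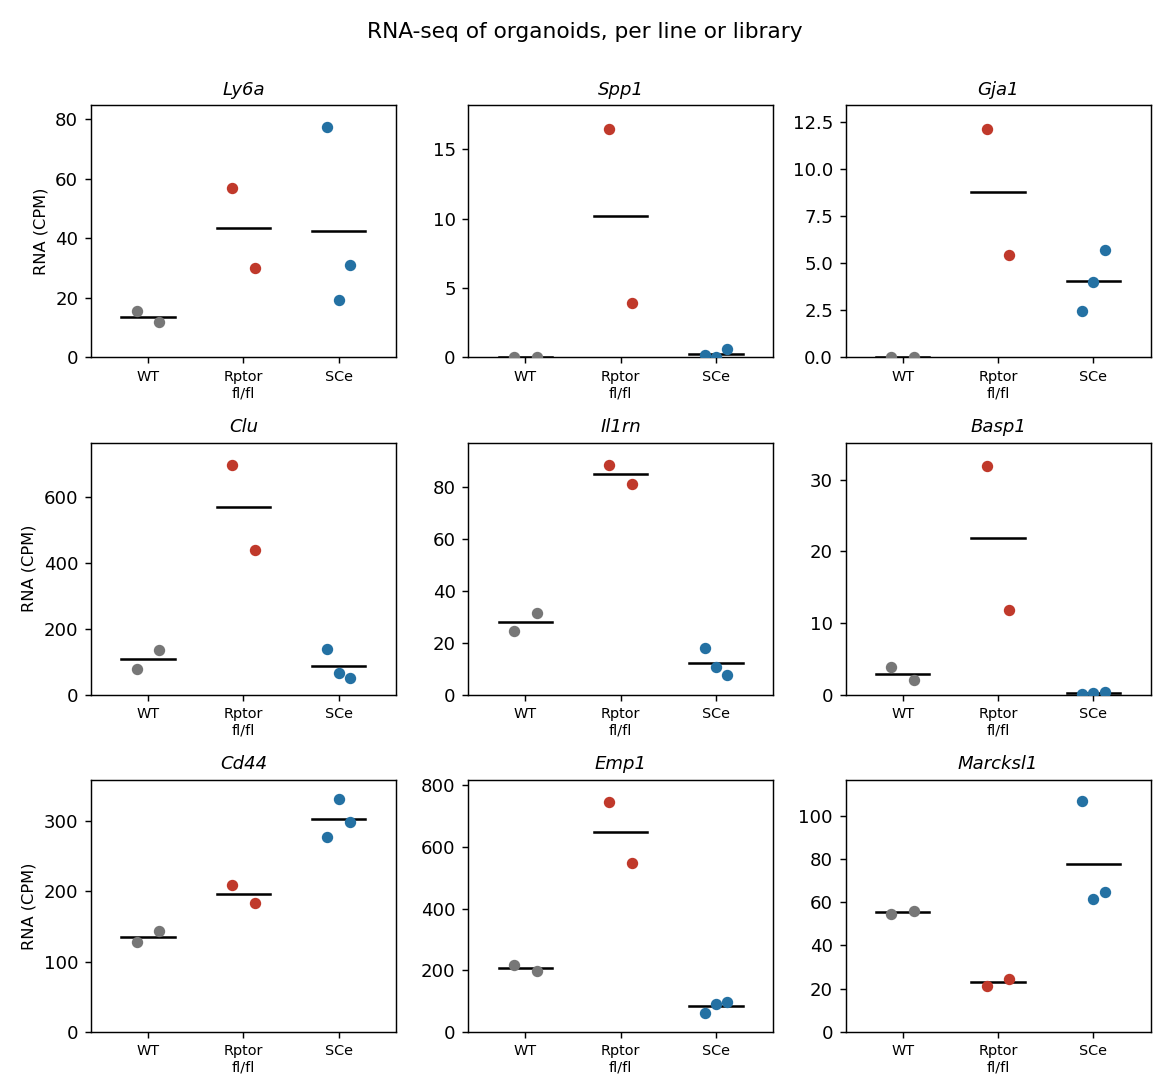
RNA level of each of the 9 genes in CPM (linear axes from 0) in WT (grey), Rptor fl/fl (red) and SCe (blue) organoids. Each point is a line (WT and Rptor fl/fl, n = 2) or library (SCe, n = 3) and each bar the group mean. Spp1 is at 0 in both WT lines, Clu, Il1rn, Basp1 and Emp1 are highest in Rptor fl/fl organoids, and Cd44 is highest in SCe organoids.

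In SCe organoids, the third state, members were called in both directions. Against WT organoids, 2 members rose, 2 fell and 5 did not pass the test. Over all 14925 genes tested, 22.4% rose and 19.9% fell, so the members' counts were near the share over all genes. The members that rose were Gja1 and Cd44, and those that fell were Basp1 and Emp1. Markers of other cells moved in the same comparison: 5 of 7 goblet and 6 of 7 enteroendocrine markers fell, the latter from a summed CPM of 207 to 303 in WT to one of 2.11 to 27.1 in SCe organoids. The stromal markers Plvap, Esam, Col1a1, Pdgfra, Des and Cnn1 rose, at summed CPM of 11.5 to 19.0 for 9 endothelial, 4.96 to 6.59 for 9 fibroblast and 1.27 to 1.63 for 7 smooth muscle markers in SCe organoids. In WT these sums were 6.27 to 7.24, 0.847 to 0.850 and 0.151 to 0.161 CPM, and the endothelial marker Cdh5 and the fibroblast marker Col3a1 were at 0 in both groups. The part of these cells in the members' changes was not tested.

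Gja1 had 73, 254 and 331 reads in the SCe libraries, or 2.44, 3.99 and 5.69 CPM, a ratio to WT of 111 with a counting interval of 43.2 to 409 (adjusted p = 0.0023). Connexin 43 RNA thus lay above WT in both other states. Cd44 stood at 278, 331 and 299 CPM in SCe organoids, 2.24-fold above WT (log2 1.18 ± 0.11 SE, adjusted p = 0.0025). Lgr5, which marks the stem cells that this culture is named for, stood at 337, 222 and 219 CPM against 215 and 197 CPM in WT and did not pass the test (adjusted p = 0.244), and of 12 adult ISC genes 2 rose and 3 fell.

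Basp1 had 1, 10 and 17 reads in the SCe libraries, or 0.0334, 0.157 and 0.292 CPM, 18.1-fold below the mean of WT (log2 −4.04, adjusted p = 0.0105). Emp1 stood at 61.3, 91.5 and 95.7 CPM, below both WT lines (log2 −1.30, adjusted p = 0.00822). Il1rn, at 18.1, 10.6 and 7.46 CPM, also lay below both WT lines without passing the test (log2 −1.20 ± 0.38 SE, adjusted p = 0.0579).

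Ly6a spread widely among the SCe libraries, at 77.2, 19.3 and 31.0 CPM, all above WT (log2 1.65 ± 0.64 SE, adjusted p = 0.0957). Clu, at 138, 66.9 and 51.4 CPM, overlapped WT (log2 −0.31, adjusted p = 0.635). Marcksl1, at 107, 61.5 and 64.5 CPM, lay above both WT lines (log2 0.51, adjusted p = 0.181). Spp1 had 6, 0 and 35 reads. The first SCe library, the shallowest of the 3, held the highest Ly6a, Clu, Il1rn and Marcksl1 values, and its summed CPM of 8 enterocyte markers was 246 against 6082 and 7119 in the other SCe libraries. Without it, 8 members were called against WT, where 4744 of 14855 genes rose and 4786 fell. Without the first or the second WT line 2 members were called, where 1171 of 15349 and 1154 of 15405 genes rose and 928 and 873 fell.

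Set directly against SCe, 5 members were higher in Rptor fl/fl organoids, 2 lower and 2 not called, where 21.0% of 15103 genes were higher and 21.8% lower. Basp1 differed most, at 136 times the SCe mean (log2 6.93 ± 0.74 SE, adjusted p = 0.00269), a value that rests on the 28 SCe reads given above and ran from log2 6.09 without the first Rptor fl/fl line to 7.58 without the third SCe library. Emp1 (log2 2.97, adjusted p = 0.00163), Il1rn (log2 2.83, adjusted p = 0.00458), Clu (log2 2.74, adjusted p = 0.00963) and Spp1 (log2 5.23, adjusted p = 0.03) were also higher. Cd44 (log2 −0.62, adjusted p = 0.0111) and Marcksl1 (log2 −1.76, adjusted p = 0.00808) were lower, and the call of Cd44 was lost without the first (adjusted p = 0.0514) or the second Rptor fl/fl line (adjusted p = 0.0893). Ly6a (log2 0.04 ± 0.64 SE, adjusted p = 0.969, with a sign that changed under other settings) and Gja1 (log2 1.11 ± 0.48 SE, adjusted p = 0.12) did not pass the test. Of 12 alternatives, the calls of Spp1 and Marcksl1 were lost in 2 each and that of Clu in 1. The count of called members fell to 3 without the first Rptor fl/fl line, where 1266 of 15511 genes were higher and 1330 lower, and to 4 without the second, where 1216 of 15439 were higher and 1293 lower. The 7 goblet markers summed to 247 to 480 CPM in SCe organoids, and 6 of them were higher in Rptor fl/fl organoids. These comparisons share libraries, so their counts are not independent of each other.

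**Figure D2:**
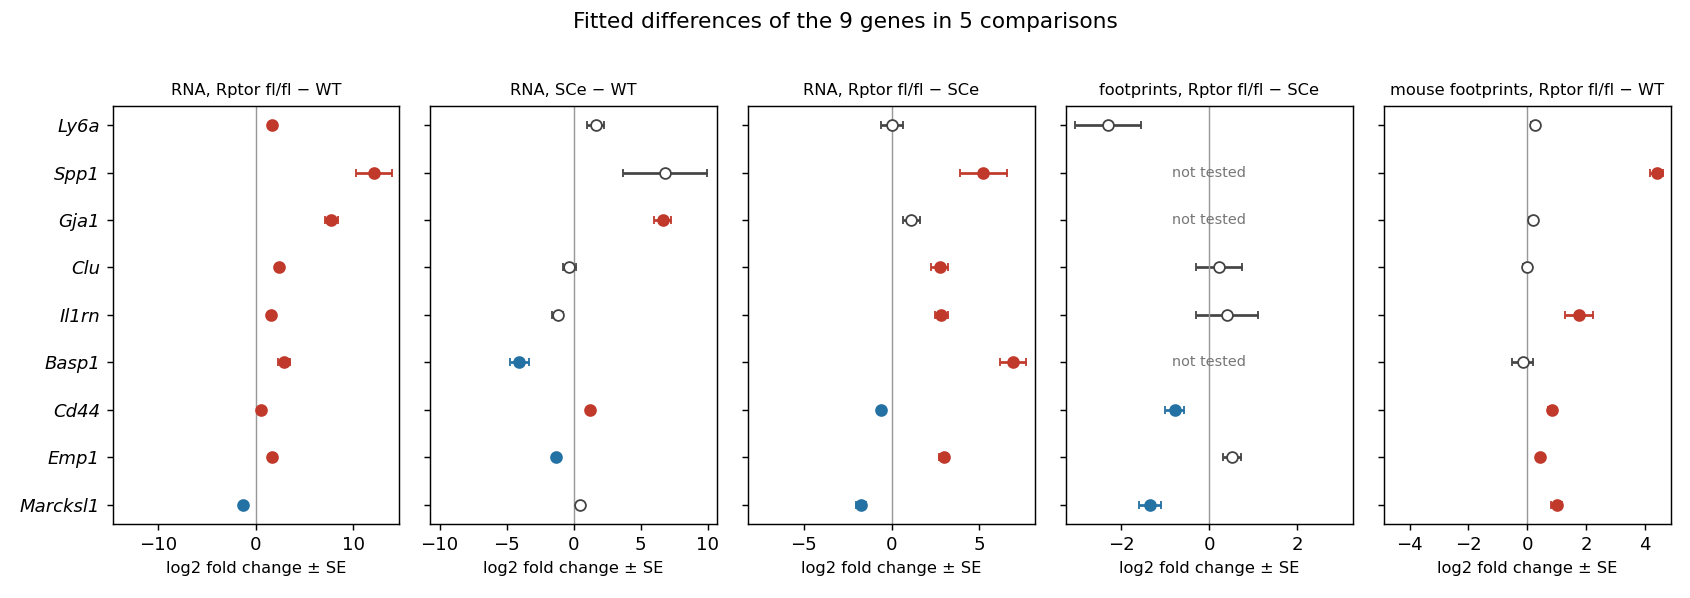
Fitted log2 fold change of each gene with its standard error (x axis, a different range in each panel) in 3 RNA comparisons of organoids, in footprints of organoids and in footprints of mice. Red points passed the test as higher, blue points as lower, and open points did not pass. Marcksl1 is lower in Rptor fl/fl organoids, in RNA and in footprints, and higher in the mice labelled Rptor fl/fl. The Spp1 and Gja1 values against WT depend on the prior count of the fit.

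Per transcript length, the order of the members changed with the state. In WT organoids Emp1 (102 ± 8.15 TPM) and Clu (89.4 ± 33.2 TPM) led with overlapping ranges, followed by Marcksl1 (50.5 TPM), Cd44 (43.4 TPM), Il1rn (36.1 TPM) and Ly6a (25.5 TPM), whose ranges over the lines did not overlap. In SCe organoids Cd44 (92.8 ± 5.78 TPM), Ly6a (92.0 ± 75.1 TPM), Clu (73.6 ± 51.6 TPM) and Marcksl1 (71.4 ± 35.4 TPM) led, and their ranges over the libraries overlapped. Marcksl1 was the third most abundant member in WT and came below Clu, Emp1, Il1rn, Ly6a and Cd44 in Rptor fl/fl organoids (22.7 ± 1.32 TPM).

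The genes nearest to each member in the pair of RNA changes, Rptor fl/fl against WT and SCe against WT, were found among 12497 genes with a mean of at least 1 CPM. Emp1 was the second nearest gene to Il1rn, at a distance of 0.11 log2 units, and Anxa3, another fetal-like gene, was the nearest to Emp1 (distance 0.07). For Spp1 and Gja1, with 0 and 2 reads per WT line, the fitted changes depend on the prior count, so no neighbour is given. The nearest gene was Zfp248 for Ly6a, Gulp1 for Clu, Il17re for Basp1, Csgalnact2 for Cd44 and Gm27029 for Marcksl1. The 2 changes share the WT lines.

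Partners and relatives of the members were counted in lists. Of 10 receptors of osteopontin, 8 were tested in Rptor fl/fl against WT organoids; Itga5 (log2 1.12), Itgb6 (log2 0.85) and Cd44 rose and Itgb5 fell (log2 −0.52). Of 15 genes of the interleukin-1 family and its receptors, 10 were tested and 4 were called higher, led by Il1r1, the signalling receptor that Il1rn blocks (log2 4.30 ± 0.62 SE, adjusted p = 0.0181), followed by Il1rn, Il18r1 (log2 1.38) and Il18. Among 13 connexins, 7 were tested; Gja1 was the member called higher and Gjb2 was lower (log2 −0.55). Of 17 genes around CD44 and hyaluronan, 13 were tested, of which 4 rose, with Msn, which encodes the CD44-actin linker moesin, and Ezr (log2 0.72) the largest, and Mmp7 fell (log2 −1.70).

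Among 17 Ly6 genes, 10 were tested; Ly6c1 (log2 3.41) and Ly6a rose and Ly6e fell (log2 −0.75). Of 6 genes of the PMP22 and EMP family, 5 were tested, and Emp1 rose while Emp3 (log2 −0.79) and Emp2 (log2 −0.39) fell. Of 4 genes of the MARCKS and GAP43 family, 3 were tested, and Basp1 rose while Marcksl1 fell. Of 11 clusterin receptors and extracellular chaperones, 7 were tested, and Hpx (log2 4.20) and Clu rose while Tgfbr1 fell. Of 26 other fetal-like genes, 24 were tested, 14 rose, with Ankrd1 (log2 6.53) among them, and Igf2bp3 (log2 −2.73) and Ly6e fell; their median log2 change was 1.23. The list was compiled with earlier results of these libraries known, so its direction is not independent evidence.

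In organoid footprints, Marcksl1 and Cd44 were the members that differed between the Rptor fl/fl and SCe labels. The members Spp1, Gja1 and Basp1 were too low to be tested, and of the 6 tested, 2 were lower under the Rptor fl/fl label and none higher, where 6.63% of 10817 genes were higher and 9.84% lower. At an unadjusted p under 0.05, Emp1 was higher (adjusted p = 0.12) and Ly6a lower (log2 −2.30 ± 0.75 SE, adjusted p = 0.0702, with a call in 3 of 12 alternatives). DESeq2 called 3 members, all lower. Of the 14984 genes given to it, including any without an adjusted p, DESeq2 called 863 higher and 1351 lower. Under the same labels 7 of 7 goblet, 4 of 7 enteroendocrine and 4 of 8 enterocyte markers were higher, with summed CPM of 3215 to 5236 against 1185 to 1572, 527 to 639 against 36.3 to 66.0 and 8203 to 8710 against 977 to 3565 in SCe. The part of these cells in the members' changes was not tested.

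Marcksl1 had values of 36.5, 28.5 and 33.2 CPM in Rptor fl/fl libraries and of 66.6, 118 and 69.7 CPM in SCe (log2 −1.35 ± 0.25 SE, adjusted p = 0.00815). Cd44 stood at 197, 187 and 205 CPM against 236, 387 and 393 CPM (log2 −0.79 ± 0.22 SE, adjusted p = 0.0407), and its call was lost in 7 of 12 alternatives. These members had the same direction in RNA and in footprints, with groups that did not overlap.

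Emp1 had values of 39.8, 40.9 and 44.2 CPM in Rptor fl/fl libraries, narrowly above the 25.4, 25.6 and 35.1 CPM of SCe (log2 0.51, adjusted p = 0.12), where its RNA differed 7.81-fold. Clu (185, 104 and 129 against 241, 67.4 and 50.5 CPM), Il1rn (6.47, 7.93 and 8.63 against 13.0, 0 and 3.92 CPM) and Ly6a (17.1, 9.03 and 10.7 against 136, 7.68 and 35.1 CPM) overlapped between the groups. Clu and Il1rn did so through the first SCe library and Ly6a through the second, the 2 shallowest of the organoid Ribo-seq. Without the first SCe library Clu was higher in the Rptor fl/fl libraries (log2 1.29, adjusted p = 0.00899) and 4 members were called, Clu, Cd44, Marcksl1 and Gja1, where 1170 of 11261 genes were higher and 1512 lower. Without any 1 of the Rptor fl/fl libraries, 1 member was called, where 235 to 300 genes were higher and 434 to 588 lower.

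Footprints were also set against RNA within a state, by the share of genes with at least as much RNA that had as few footprints. Neither was scaled for length, and a short coding sequence leaves room for fewer footprints. Coding length was 402 bases for Ly6a-204, 477 for Il1rn-204, 480 for Emp1-206, 600 for Marcksl1-201 and 678 for Basp1-201. It was 882 bases for Spp1-201, 1146 for Gja1-201, 1344 for Clu-201 and 1731 for Cd44-207. The part of length in these shares was not tested. In Rptor fl/fl organoids this share was lowest for Basp1, Il1rn, Gja1 and Spp1, and in SCe organoids for Il1rn, Emp1 and Gja1. Basp1, at 21.9 CPM of RNA in Rptor fl/fl organoids, had 1 footprint over the 3 libraries, and of the 7377 genes with at least as much RNA, 39 (0.529%) had as few. Gja1, at 8.78 CPM of RNA, had none, which allows up to 0.498, 0.476 and 0.365 CPM at the depth of these libraries, while SCe organoids had 1, 4 and 21 footprints at 4.04 CPM of RNA. Against 3 counts per library, Gja1 footprints were at least 6.58-fold lower in the Rptor fl/fl libraries, and without the count filter the difference passed the test (adjusted p = 0.0113, edgeR). Spp1, at 10.2 CPM of RNA, had 5, 0 and 3 footprints. The shares of Gja1 and Spp1 were 1.01% and 1.46%.

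Il1rn had 160 footprints over the Rptor fl/fl libraries, and of the 2605 genes with at least as much RNA, 26 (0.998%) had as few. Emp1 had 862, and 8 of 164 such genes (4.88%) had as few, and Ly6a and Clu stood at 5.44% and 7.92%. In SCe organoids Il1rn stood at 6.27%, Emp1 at 8.45% and Gja1 at 9.90%, also low, and the other 6 members between 18.6% and 38.8%. Cd44 and Marcksl1 stood at 30.1% and 36.6% in Rptor fl/fl organoids. The RNA and the footprints of Rptor fl/fl organoids came from separate cultures, those for RNA of the genotype without RPL22.HA, so a difference between the cultures cannot be told apart from a difference in translation.

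Translation efficiency, the change of footprints beyond that of RNA between Rptor fl/fl and SCe organoids, was called for 1 of the 6 members tested, Emp1, which was lower (log2 −2.40 ± 0.31 SE, adjusted p = 0.00653); over 10747 genes 1.12% were called higher and 1.81% lower. Clu (log2 −2.47, adjusted p = 0.123), Il1rn (log2 −2.36, adjusted p = 0.134) and Ly6a (log2 −2.29, adjusted p = 0.267) had values of the same size without passing. Cd44 (log2 −0.11, adjusted p = 0.875) and Marcksl1 (log2 0.46, adjusted p = 0.532) did not pass either. DESeq2, which kept the low genes, called 6 of the 9 lower: Emp1, Clu (adjusted p = 0.0344), Il1rn (adjusted p = 0.0461), Gja1, Basp1 and Spp1 (adjusted p = 0.0437). Of the 18964 genes given to it, including any without an adjusted p, 493 were higher and 966 lower. Without the first SCe library of RNA 3 members were called, where 283 of 10736 genes were higher and 422 lower, and without the first of footprints 2, where 400 of 11175 were higher and 546 lower.

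**Figure D3:**
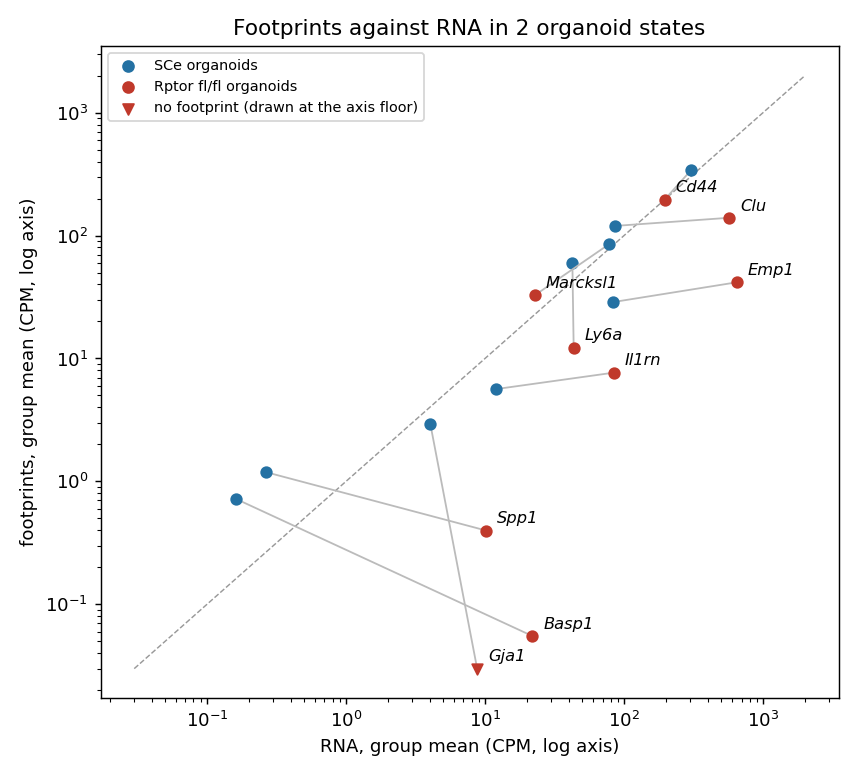
Mean footprints against mean RNA of each gene (CPM, log axes) in SCe (blue) and Rptor fl/fl (red) organoids, joined by a line; the dashed line marks equal values and the triangle a gene with no footprint, drawn near the bottom of the axis. Cd44 and Marcksl1 lie near the dashed line in both states, and Basp1, Gja1, Spp1, Il1rn, Emp1, Ly6a and Clu lie below it in Rptor fl/fl organoids.

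In footprints from mice all members were high enough to be tested. Of the 9, 5 rose in the mice labelled Rptor fl/fl against WT mice and none fell, where 7.48% of 11515 genes rose and 5.97% fell. Those that rose were Spp1, Il1rn, Cd44, Emp1 and Marcksl1, with no overlap between the groups in any of the 5. The share of all genes without overlap is not given. At an unadjusted p under 0.05 no further member was called, and DESeq2 called 4, all higher, giving no adjusted p for Il1rn. Of the 17430 genes given to it, including those without an adjusted p, DESeq2 called 623 higher and 357 lower.

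Spp1 had the largest change, from 7, 7 and 17 footprints in WT mice to 216, 272 and 657 in Rptor fl/fl mice, or from 8.81, 3.18 and 3.09 CPM to 70.8, 82.4 and 82.6 CPM. The fitted log2 change was 4.40 ± 0.21 (SE, adjusted p = 1.83e-09) and stayed between 4.05 and 4.65 under 12 alternatives. Every Rptor fl/fl mouse lay far above every WT mouse for this ligand.

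Cd44, its receptor, stood at 22.6, 29.5 and 30.9 CPM in WT mice and 59.7, 54.6 and 44.9 CPM in Rptor fl/fl mice (log2 0.84, adjusted p = 0.00126). Of the 10 osteopontin receptors, all tested, 5 rose, with Itga5 (log2 0.87) and Cd44 the largest. Il1rn rose from 0, 2 and 9 footprints to 17, 17 and 26 (log2 1.76 ± 0.48 SE, adjusted p = 0.0255), a call that was lost in 5 of 10 alternatives. In the interleukin-1 list Il1b rose as well (log2 1.39, adjusted p = 0.00232).

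Emp1 stood at 140, 155 and 129 CPM in WT mice and 180, 196 and 194 CPM in Rptor fl/fl mice (log2 0.44, adjusted p = 0.0043). Marcksl1 rose from 12.6, 13.2 and 16.0 CPM to 38.0, 25.2 and 26.7 CPM (log2 1.00 ± 0.19 SE, adjusted p = 0.00259), opposite to its fall in organoid RNA; the difference between the systems was not tested. Its relative Marcks fell in the mice (log2 −0.39, adjusted p = 0.0372).

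The other 4 members did not pass the test in mice. Ly6a stood at 33.3 ± 2.51 CPM in WT and 39.2 ± 6.44 in Rptor fl/fl mice (SD, n = 3; log2 0.27 ± 0.15 SE, adjusted p = 0.264). Clu stood at 70.0 ± 19.3 and 73.8 ± 5.67 CPM (log2 −0.02, adjusted p = 0.969, with a sign that changed under other settings), Gja1 at 30.9 ± 5.02 and 33.5 ± 2.53 CPM (log2 0.19, adjusted p = 0.44) and Basp1 at 8.21 ± 0.59 and 6.59 ± 3.77 CPM (log2 −0.15, adjusted p = 0.841). Gja1 and Basp1, with 0 and 1 footprint in all Rptor fl/fl organoid libraries, were thus measured in mice of both genotypes.

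The pulldown from mice also held RNA of other cells. In WT and Rptor fl/fl mice, 8 enterocyte markers summed to 48990 to 50224 and 54415 to 58994 CPM. The sums were 25433 to 25743 and 30101 to 33652 CPM for 7 goblet markers, and 8955 to 9801 and 5160 to 8711 CPM for 7 Paneth markers. Those of 12 adult ISC genes were 824 to 859 and 524 to 849 CPM. Called were 4 goblet markers higher, 3 Paneth markers lower, and 3 enterocyte markers higher with 1 lower. Their part in the members' changes was not tested. The summed CPM of 12 immune markers was 487 to 502 in WT and 572 to 616 in Rptor fl/fl mice, none of the 12 was at 0, and Cd53, Cd68, Itgam and Lyz2 rose. That of 9 fibroblast markers was 1117 to 1198 and 1376 to 1603, with 5 rising, and that of 9 endothelial markers 129 to 169 and 185 to 209, with 3 rising. For 9 pancreatic acinar markers it was 1426.9 to 3466.4 and 2650.5 to 3674.6, with Cpb1 rising. For 7 smooth muscle markers it was 1368.8 to 1508.1 and 1288.7 to 1466.4, with Actg2 rising and Myh11 falling. Spp1, Il1rn and Gja1 are also expressed by macrophages or stromal cells. The part of any of these cells in the members' changes was not tested. Lgr5 stood at 11.3, 7.73 and 8.73 CPM in WT and 45.6, 8.49 and 6.29 CPM in Rptor fl/fl mice. Without the first Rptor fl/fl mouse, the library high in Lgr5, 5 members were called, where 1095 of 11852 genes rose and 859 fell. Without the third WT mouse 3 were, Emp1 (adjusted p = 0.0545) and Il1rn being lost, where 536 of 11683 genes rose and 389 fell.

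Against the list of 26 other fetal-like genes, of which 18 were tested in mice, Anxa1 (log2 0.71), Msln (log2 0.67) and Ly6e (log2 0.35) rose, and the median log2 change was 0.25. Ly6e, like Marcksl1, thus had opposite calls in organoid RNA and mouse footprints. Footprints of the 5′ regions were counted with the coding sequence in mice and as separate entries in organoids, where members had at most 59 of them in a library, on Emp1.

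**Figure D4:**
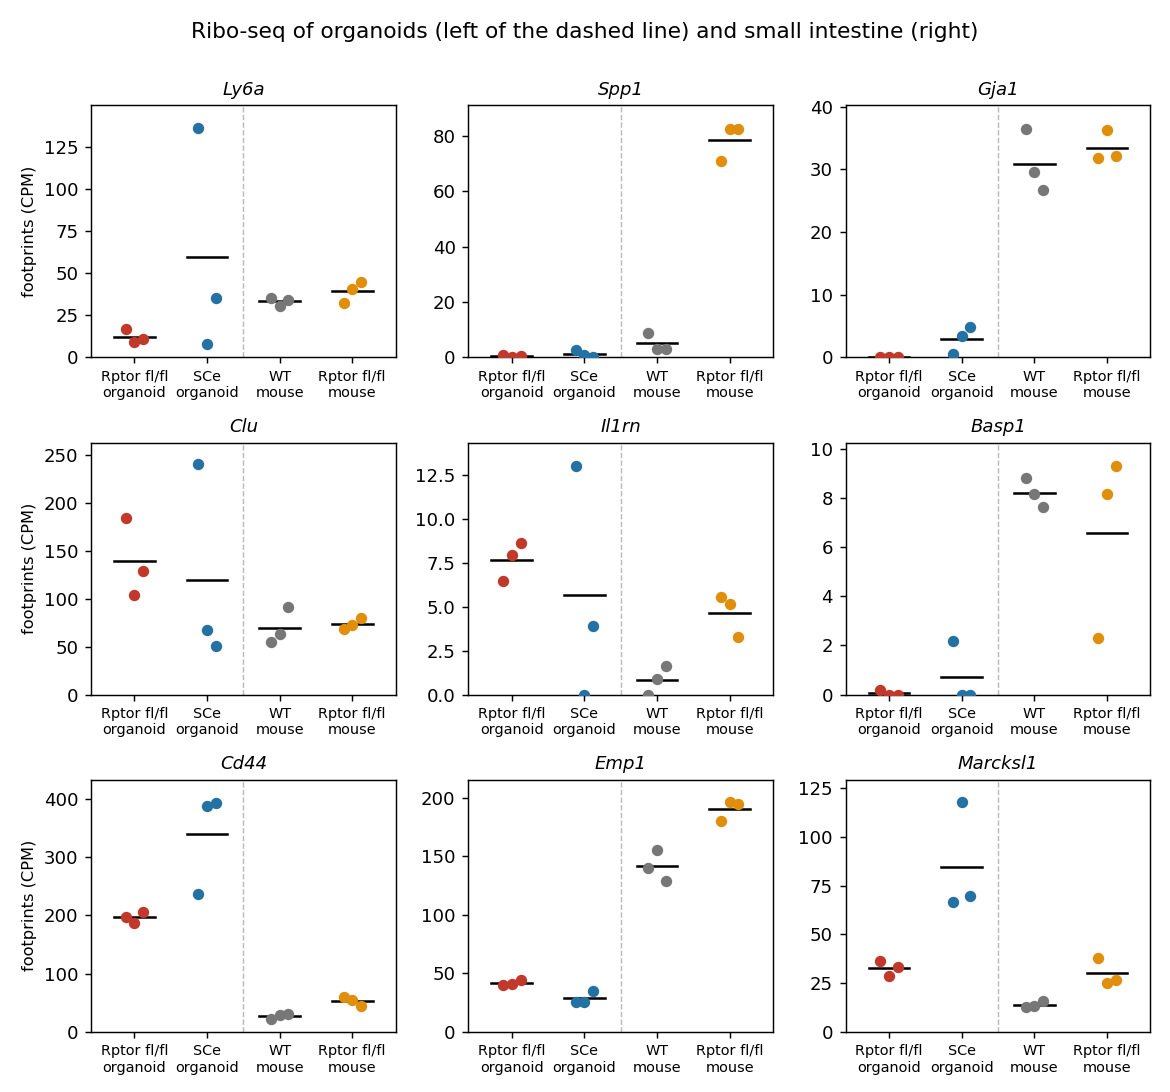
Footprints on each of the 9 genes in CPM (linear axes from 0) in organoids labelled Rptor fl/fl (red) and SCe (blue), left of the dashed line, and in mice labelled WT (grey) and Rptor fl/fl (orange), right of it. Points are libraries (n = 3 per group) and bars are means; organoid and mouse libraries were scaled separately and counted on different sequences. Spp1 lies between 70.8 and 82.6 CPM in Rptor fl/fl mice and at most at 8.81 CPM elsewhere.

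Reads were also assigned to transcripts, which differ in their start and in some members in their coding form. In RNA of Rptor fl/fl organoids, Spp1-204, which begins at chr5:104436192, the start of the second promoter printed above, held 745 and 112 reads in the 2 lines, and Spp1-205, which begins at chr5:104435121, held 0 and 113. Spp1-201, which begins at chr5:104435118, held 103 reads, or 12.1% of the first line, and all 41 Spp1 reads of SCe organoids were on Spp1-205, so RNA was assigned to both starts. In mice labelled Rptor fl/fl, 99.6% of Spp1 footprints, as a mean over libraries, were assigned to Spp1-201. These transcripts share a coding length of 882 bases, so footprints within it do not tell them apart, and what the assignment in mice rests on was not tested.

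Il1rn has a secreted form, which begins with a signal peptide, and intracellular forms from an upstream promoter. Il1rn-201 and Il1rn-204 share 475 coding bases and differ before them; their coding starts are printed with the bases of their own in capitals, followed by 30 shared bases.
Il1rn-201: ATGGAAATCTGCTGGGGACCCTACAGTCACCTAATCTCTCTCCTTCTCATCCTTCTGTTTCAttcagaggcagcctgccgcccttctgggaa
Il1rn-204: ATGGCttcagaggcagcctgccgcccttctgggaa
Il1rn-201 begins at chr2:24345310 and held 71.2% ± 4.84 of Il1rn RNA in WT, 64.2% ± 0.42 in Rptor fl/fl and 60.5% ± 13.4 in SCe organoids (SD over lines or libraries). Il1rn-204 begins at chr2:24336853, within the promoter window with the AP-1 letters, and held 22.3%, 26.8% and 30.1%. In RNA both forms had more reads in Rptor fl/fl than in WT lines, with 2920 and 2999 against 878 and 1161 for Il1rn-201 and 1191 and 1281 against 302 and 332 for Il1rn-204. All 160 and 41 organoid footprints on Il1rn were assigned to Il1rn-204, whereas 53.1 of 60 in Rptor fl/fl mice were assigned to Il1rn-201. The 2 references differ in which 5′ bases they hold, and with 475 shared bases this assignment does not show which protein was made.

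Emp1 RNA was divided between Emp1-201, which begins at chr6:135362931 behind the promoter printed above, and Emp1-206, which share a coding length of 480 bases. Emp1-206 held 26.6% ± 2.06 in WT, 20.5% ± 1.19 in Rptor fl/fl and 46.0% ± 9.93 in SCe organoids, the highest share in the state with the least Emp1. Cd44 RNA was mostly Cd44-207 (coding length 1731 bases; 47.3% in WT, 46.7% in Rptor fl/fl and 49.8% in SCe organoids) and the longer Cd44-201 (2340 bases; 27.4%, 30.8% and 25.2%). Ly6a-204 held 98.8% of Ly6a RNA in WT, 96.2% in Rptor fl/fl and 89.6% in SCe organoids.

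Tested by transcript in Rptor fl/fl against WT organoids, none of the 25 member transcripts tested passed in edgeR (lowest adjusted p = 0.097), nor did any of 32313 transcripts in all. At an unadjusted p under 0.05 there were 18 of the 25, against 20.3% of all transcripts, and DESeq2 called 18, against 16.5% of the 37390 to which it gave an adjusted p.

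**Figure D5:**
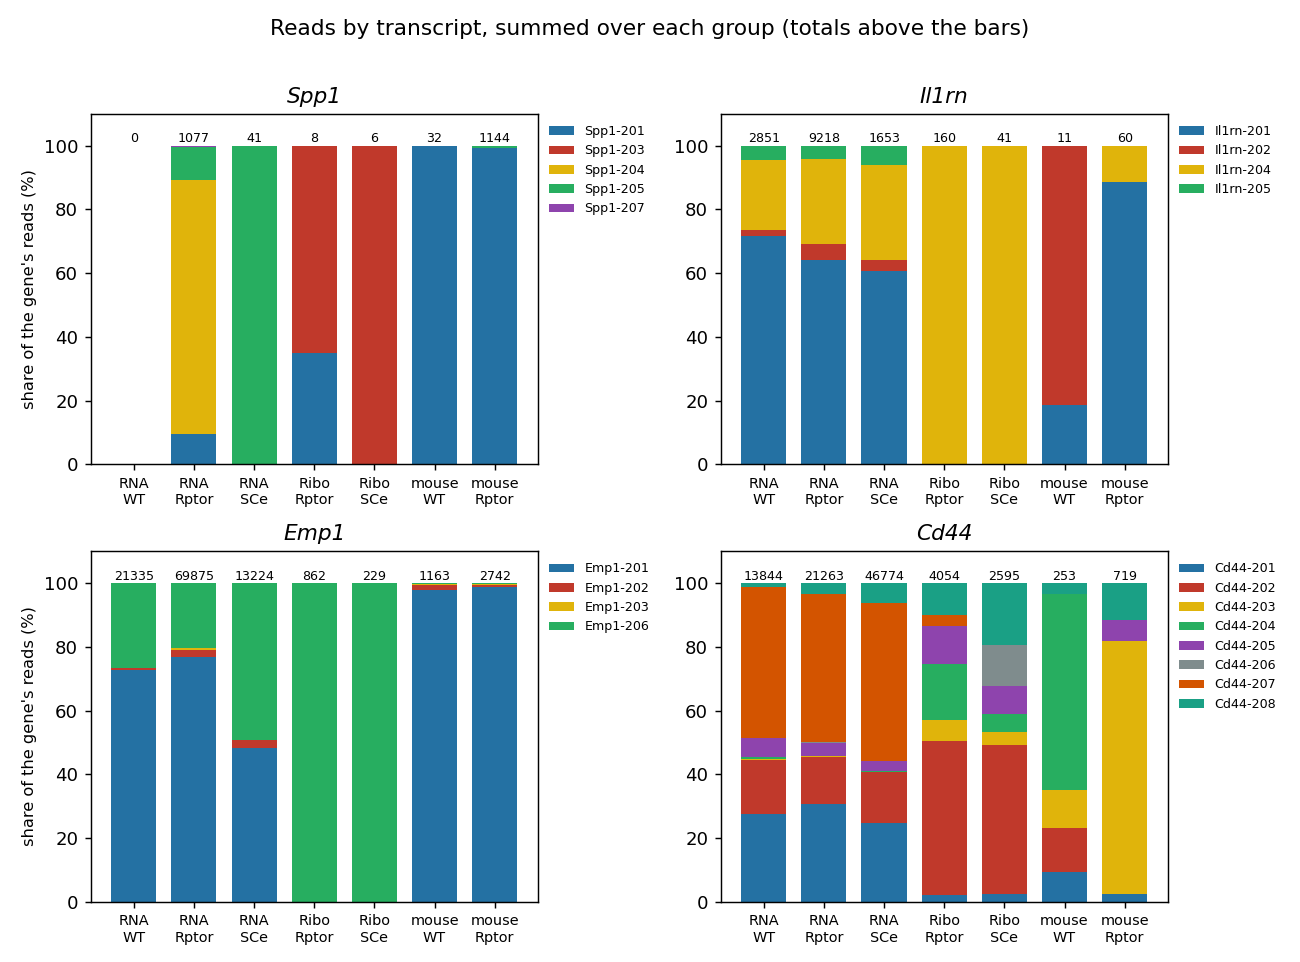
Share of each gene's reads by transcript (percent, stacked to 100) for Spp1, Il1rn, Emp1 and Cd44 in the 3 RNA and 4 Ribo-seq groups, with the summed reads above each bar. As a mean over lines, not over the summed reads drawn, Spp1-204 holds 68.6% of Spp1 RNA in Rptor fl/fl organoids, and it holds none in SCe organoids. As a mean over libraries, Spp1 footprints of Rptor fl/fl mice are 99.6% Spp1-201. The organoid footprints of Il1rn are all on Il1rn-204.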

How the data were processed

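RNA-seq of organoids and Ribo-seq of organoids and mouse small intestine were used, in 23 libraries and 7 groups. The authors trimmed reads with cutadapt 1.18 and quantified them with Salmon 1.1.0, versions as in the submitters' processing notes, on GENCODE vM21 protein-coding sequences (mm10). The deposited expected counts per transcript were added up by gene, then rounded, leaving out entries of the 5′ region (suffix _uORF), and the 2 technical libraries of each RNA line were summed. The deposited TPM values, which the authors' Salmon run scaled for length, were used for RNA levels between genes, as sums per gene. For footprints the organoid reference held coding sequence and the mouse reference 5′ regions as well, so their levels are not compared. CPM are counts per 1000000 of a library size scaled by TMM over all libraries of an assay.

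Tests were edgeR's quasi-likelihood test (edgeR 4.0.16, R 4.3.3) across all genes after filtering on low counts, with Benjamini-Hochberg adjustment, called at an adjusted p under 0.05. Translation efficiency was tested by an assay-by-group term in 1 model of both assays. An allowance of 3 counts stood in for a group at 0. DESeq2 1.42.0, other size factors, no filter, a length offset, a replicate block and leaving out each library were alternatives. Scripts were tested on simulated data. Intervals cover counting error only.

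All 9 members are named. Of each list, the numbers called and the 2 largest rises and falls are given, and of each member genes among the 2 nearest in the pair of RNA changes (not for Spp1 and Gja1, at or under the floor in WT) and the transcripts holding at least 10% of its reads in an RNA group; a few further called genes were named after their values were seen. The members and lists were chosen with earlier results of these data known. The deposited table of the authors' own test of translation efficiency was not used.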

Additional observations from a re-analysis of the deposited data

Results flagged for a closer look

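Marcksl1 moved in opposite directions in the 2 systems. In organoid RNA its log2 change between Rptor fl/fl and WT was −1.27, both Rptor fl/fl lines lying below both WT lines, and in mouse footprints it was 1.00, all 3 mice labelled Rptor fl/fl lying above all 3 WT mice. The difference between these changes was not tested, and the systems differ in the measure, in the cells that carry the deletion and in the time since induction.

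For Emp1 the change in footprints differed from that in RNA between Rptor fl/fl and SCe organoids, by −2.40 on the log2 scale (adjusted p = 0.00653, edgeR). Clu (−2.47), Il1rn (−2.36) and Ly6a (−2.29) had differences of the same size that did not pass, DESeq2 called 6 members, Gja1 passed without the count filter (adjusted p = 0.0286), and Emp1 itself did not pass with a replicate block (adjusted p = 0.0603). The RNA and the footprints of Rptor fl/fl organoids came from separate cultures, of which only those for footprints carried RPL22.HA, so a difference between the cultures cannot be told apart from one in translation.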

How the results depend on the processing

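Over all alternatives of the members' fold changes, 515 kept direction and side of the threshold, 37 lost a call, 23 gained one and 17 changed sign, none of the last called in the reported fit. The number called over all genes also moved with the setting, so a changed count cannot be read as particular to the members. Of 9 members called in RNA of Rptor fl/fl against WT, 6 were called with all 3 groups in one fit. That fit called 821 of 15135 genes higher and 723 lower, where the reported fit called 1637 of 14131 and 1558. Fits without 1 line leave 1 line in a group, and some calls were lost in them. Against SCe, 7 became 3 to 7 without 1 library. For SCe against WT, 4 became 7 with technical libraries separate, where 4395 of 13869 genes rose and 4093 fell. Without the first SCe library it became 8, where 4744 of 14855 genes rose and 4786 fell. For organoid footprints, 2 became 4 without the filter, where 837 of 14984 genes were higher and 1176 lower. It became 1 with the length offset (262 of 10817 genes higher and 386 lower). Without 1 library it became 1 to 4, where 235 to 1170 genes were higher and 434 to 1512 lower. For translation efficiency, 1 became 6 in DESeq2, where 493 genes were higher and 966 lower. It became 2 without the filter (83 of 14615 genes higher and 160 lower). With technical libraries separate it became 3 (549 of 10713 genes higher and 747 lower). Without the first SCe library of RNA it also became 3, where 283 of 10736 genes were higher and 422 lower. In mice, 5 became 3 to 5 without 1 mouse, where 517 to 1095 genes rose and 380 to 859 fell. Of member transcripts, 0 became 18 in DESeq2, where 16.5% of 37390 transcripts were called. Some of these counts include members under the filter of the reported fit. The cause was not tested.

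The signs that changed were those of Ly6a in RNA against SCe (−0.0910 with the length offset, −0.48 to 0.79 without 1 library), Clu in RNA of SCe against WT (up to 0.12 without 1 library, down to −0.84), Clu in organoid footprints (−0.16 to 1.29), Il1rn in organoid footprints (−0.0203 to 1.46), Cd44 in translation efficiency (−0.314 to 0.0248), Clu in mice (0.0346 in DESeq2, −0.127 to 0.307 without 1 mouse) and Basp1 in mice (up to 0.17, down to −0.58).

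Numbers shared by the labels were not taken to pair the samples: same-numbered samples correlated in RNA at 0.42 for Rptor fl/fl and WT, 0.33 and 0.29 for Rptor fl/fl and SCe and 0.24 and 0.22 for SCe and WT, all with 2 pairs, and from −0.0565 to 0.0357 in footprints of organoids and −0.0149 to 0.0203 in mice. With the number as a replicate block, 9, 6 and 4 members were called in the 3 RNA comparisons. The block gave 1 in organoid footprints, 0 in translation efficiency and 4 in mice, where Clu stood at 0.0337. Over all genes the RNA fits called 2359 higher and 2392 lower of 14131, 1673 and 1740 of 15103, and 1753 and 1401 of 14925. Footprints had 517 and 712 of 10817 in organoids and 731 and 573 of 11515 in mice. Translation efficiency had 2 and 2 of 10747. Cd44 in RNA (adjusted p = 0.0684) and footprints (0.0726) against SCe, Emp1 in translation efficiency (0.0603) and Il1rn in mice (0.0651) did not pass with the block. Depth limits Spp1, Gja1, Basp1 and Il1rn in footprints.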
